A study of Homo sapiens with 8 samples.

Results

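SJRH30 is an established human cell line from an alveolar rhabdomyosarcoma, a childhood tumour with features of skeletal muscle, and the comparison described here is its response to the earliest sampled time of low oxygen. Members were chosen by the time given in the sample titles: the 2 arrays taken after 6 h in a chamber at 1% oxygen and the 2 arrays taken at 0 h, before the cells entered the chamber, which are 4 of the 8 arrays of the series. The other 4 arrays, from 12 h and 24 h at 1% oxygen, entered the fit to estimate the spread and are shown at the end for the course after 6 h. All groups shared the same line, a medium with fetal serum, penicillin and streptomycin, and no other treatment that the labels name. The labels call the 2 arrays of a time biological replicates without saying how the cultures were kept apart. Cells kept in normal oxygen for 6 h were not analysed here, and hypoxia and time in culture cannot be told apart in any value given here. A bulk level cannot tell more cells of a kind from more RNA per cell. Levels are the log2 probe set summaries that the authors deposited, with 11963 genes tested, each on the probe set of highest mean level.

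The labels name the cell type as muscle fibroblasts. Of 7 skeletal muscle markers (MYOD1, MYOG, DES, CHRNA1, MYF5, MYL4 and ACTC1), all were measured, with a median 0 h level of 10.11 and a range of 4.12 to 13.83. The 9 fibroblast markers ranged from 3.67 to 10.68 with a median of 6.24. Markers of endothelial, immune, epithelial and fat cells had medians of 4.78 to 4.89. None of the muscle markers was called at 6 h. The fibroblast marker COL3A1 and the endothelial marker TEK were called higher, by 0.34 and 0.31 on the log2 scale, and no immune, epithelial or fat cell marker was called. The calls of COL3A1 and TEK were each lost when any 1 of the 4 compared arrays was left out. A mean over each marker list moved by little, from 10.17 and 10.14 at 0 h to 10.14 and 10.17 at 6 h for muscle, and from 6.32 and 6.26 to 6.32 and 6.30 for fibroblast markers. The parts of COL3A1 and TEK in any other result were not tested.

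Cells sense oxygen through hydroxylase enzymes that need it as a substrate. In well-oxygenated cells the EGLN prolyl hydroxylases mark the alpha subunits of the hypoxia-inducible factors for capture by VHL and destruction, and in low oxygen the alpha subunits persist, pair with ARNT and bind DNA at sites with the core RCGTG. Their targets raise glucose use, divert pyruvate from mitochondria, remove mitochondria and promote vessel growth, while other programmes lower costly protein synthesis. Oxygen is also a substrate of the enzymes that hydroxylate collagen and of those that remove methyl groups from histones and DNA.

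Of 11963 genes, 423 (3.54%) were called at an adjusted p under 0.05, with 277 higher (2.32%) and 146 lower (1.22%) at 6 h. Rises were larger than falls. Among the genes called higher 30 rose at least 2-fold and 51 rose between 1.5-fold and 2-fold, while none of the genes called lower fell 2-fold and 15 fell between 1.5-fold and 2-fold. The median called rise was 1.36-fold and the median called fall 1.29-fold. The median over all genes was -0.02 on the log2 scale, and 5257 genes had a positive difference. The 6 h arrays lay wholly above or below the 0 h arrays in 55.2% of genes, so this separation alone marks no gene out. Calls were rare among dim genes, with 4 higher and 4 lower among the dimmest 25% of genes by 0 h level, against 105 higher and 61 lower among the brightest 25%. An unadjusted p under 0.05 was reached by 2300 genes.

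**Figure D1:**
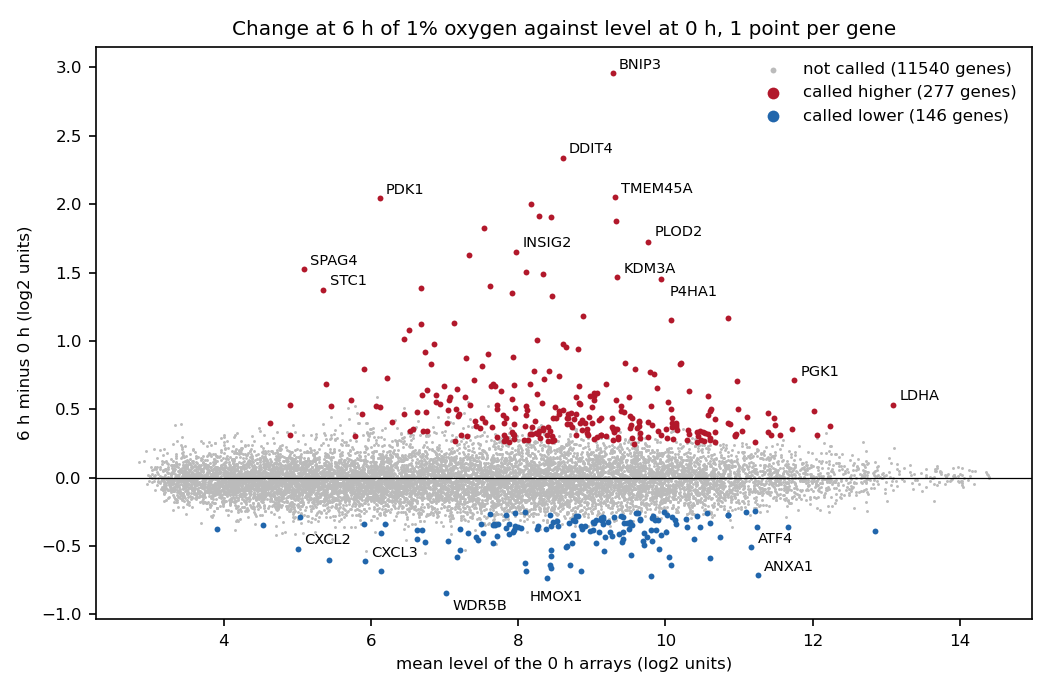
Difference between 6 h and 0 h (vertical axis, log2 units) against the mean level of the 0 h arrays (horizontal axis, log2 units), 1 point per gene, with genes called higher in red and lower in blue. The 277 rises reach 2.96 for BNIP3, while the 146 falls end at -0.84 for WDR5B.

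Of the called genes 197 had other probe sets. Another probe set was called the same way for 62 of these and the opposite way for 0. The calls depended on having all 4 compared arrays. Without 0 h replicate 1, 0 h replicate 2, 6 h replicate 1 and 6 h replicate 2 in turn, 92, 111, 90 and 131 genes were called. Of the 423 called genes, 79 were called the same way each time, 67 higher and 12 lower, and the remaining ones lost their call without at least 1 of the arrays. A gene said to hold without any single array is one of the 79, though not all of these are marked, and a count written as a range over the 4 leave-outs gives the fewest and the most members called when 1 of those arrays was left out.

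Several of the sharpest rises could be set beside the promoters of the same genes. The sequences shown are of the gene of largest rise in each of 6 functional lists, among those whose promoter holds the letters ACGTG, and of the gene of largest such rise outside all lists. They run 5′ to 3′ along the gene from 250 bases before to 50 bases after its annotated start, in RefSeq assembly GRCh38.p14, and capitals mark ACGTG and its reverse complement CACGT, which overlap where CACGTG occurs.
BNIP3, chr10:131981874-131982173, minus strand: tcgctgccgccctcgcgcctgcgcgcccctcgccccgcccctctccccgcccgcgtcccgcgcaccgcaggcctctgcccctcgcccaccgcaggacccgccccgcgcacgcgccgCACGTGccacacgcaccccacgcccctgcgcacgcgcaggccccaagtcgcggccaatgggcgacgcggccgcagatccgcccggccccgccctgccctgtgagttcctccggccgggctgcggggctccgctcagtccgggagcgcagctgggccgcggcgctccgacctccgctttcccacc
DDIT4, chr10:72273674-72273973, plus strand: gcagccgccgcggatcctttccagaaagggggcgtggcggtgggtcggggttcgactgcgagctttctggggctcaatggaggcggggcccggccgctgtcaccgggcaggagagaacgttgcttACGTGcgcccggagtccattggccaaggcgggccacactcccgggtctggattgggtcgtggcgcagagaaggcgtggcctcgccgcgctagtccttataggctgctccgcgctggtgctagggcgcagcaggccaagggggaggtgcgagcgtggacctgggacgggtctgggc
HK2, chr2:74833877-74834176, plus strand: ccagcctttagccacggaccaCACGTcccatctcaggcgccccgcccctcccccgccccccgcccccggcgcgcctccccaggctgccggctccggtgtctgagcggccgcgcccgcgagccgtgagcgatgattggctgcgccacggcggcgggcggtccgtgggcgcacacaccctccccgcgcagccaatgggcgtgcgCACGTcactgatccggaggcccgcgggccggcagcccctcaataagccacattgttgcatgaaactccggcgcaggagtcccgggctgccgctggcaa
BHLHE40, chr3:4979187-4979486, plus strand: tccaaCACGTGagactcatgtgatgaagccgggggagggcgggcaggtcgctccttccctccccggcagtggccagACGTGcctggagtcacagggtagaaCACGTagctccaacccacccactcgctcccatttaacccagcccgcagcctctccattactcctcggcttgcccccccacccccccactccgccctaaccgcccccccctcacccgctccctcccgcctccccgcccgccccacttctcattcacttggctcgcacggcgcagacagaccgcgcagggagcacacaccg
PLOD2, chr3:146161135-146161434, minus strand: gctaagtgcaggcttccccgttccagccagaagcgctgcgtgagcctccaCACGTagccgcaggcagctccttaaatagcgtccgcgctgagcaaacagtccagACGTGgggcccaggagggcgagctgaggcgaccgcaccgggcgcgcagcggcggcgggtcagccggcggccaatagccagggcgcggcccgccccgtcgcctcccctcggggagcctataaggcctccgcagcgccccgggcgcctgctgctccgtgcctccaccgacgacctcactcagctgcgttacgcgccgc
INSIG2, chr2:118088221-118088520, plus strand: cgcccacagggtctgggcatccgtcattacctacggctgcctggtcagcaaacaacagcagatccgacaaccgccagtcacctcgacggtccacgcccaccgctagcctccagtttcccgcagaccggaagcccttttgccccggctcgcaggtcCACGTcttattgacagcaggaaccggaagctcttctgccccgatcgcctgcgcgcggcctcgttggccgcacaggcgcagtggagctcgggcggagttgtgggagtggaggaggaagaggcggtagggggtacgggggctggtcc
RNF113A, chrX:119871684-119871983, minus strand: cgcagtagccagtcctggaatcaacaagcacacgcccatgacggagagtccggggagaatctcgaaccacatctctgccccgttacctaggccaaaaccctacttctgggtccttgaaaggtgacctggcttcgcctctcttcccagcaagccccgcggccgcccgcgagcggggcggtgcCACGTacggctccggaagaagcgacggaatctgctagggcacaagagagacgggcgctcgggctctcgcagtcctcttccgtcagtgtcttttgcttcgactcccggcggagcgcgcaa

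BNIP3, on chromosome 10, held overlapping matches whose first bases lay at -134 and -133 from the start, forming CACGTG, and DDIT4 held 1 match at -125. HK2 held matches at -229 and -48, PLOD2 at -200 and -146, INSIG2 at -95 and RNF113A at -69. BHLHE40 held 4 matches, at -245, -244, -174 and -149. Over the 9562 tested genes with a promoter in the RefSeq table, 24.8% held ACGTG on either strand. The share was 53.8% (14 of 26) among genes called higher by at least 2-fold, 32.1% (63 of 196) among other genes called higher and 20.9% (27 of 129) among genes called lower. For GCGTG on either strand the shares were 53.8% among the 26 genes, 51% among the 196, 53.5% among those called lower and 46.6% among all, and CACGTG alone was in 23.1%, 14.3%, 11.6% and 9.51%. The 26 promoters were also richer in G and C, with a median of 69.3% against 64% over all, so base composition moved with the ACGTG share and its part in it was not tested. A match is a description of letters in this window. PDK1, EGLN3, MXI1, TET1, TMEM45A, BEND5 and TRMT2B rose at least 2-fold with neither ACGTG nor GCGTG in it.

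In the oxygen sensing list 2 of 14 measured members rose and 1 fell, and the rises were both prolyl hydroxylases. EGLN1, the main hydroxylase acting on the HIF alpha subunits, stood at 8.08 and 8.14 in the 0 h arrays and 9.67 and 9.56 in the 6 h arrays. EGLN3, the hydroxylase best known as a target of the factors it marks, stood at 7.23 and 7.44 and then at 9.01 and 8.92. The arrays of the 2 times did not overlap for either gene. EGLN1 rose by 1.51 ± 0.06 (SE of the limma fit) on the log2 scale, 2.84-fold, with adjusted p = 1.35e-05, and EGLN3 by 1.63 ± 0.09, 3.1-fold, with adjusted p = 9.67e-05. Both held without any single array. None of the 5 HIF subunits measured was called higher. HIF1A, the widely expressed alpha subunit, read 12.26 and 12.32 at 0 h and 12.26 and 12.27 at 6 h, a difference of -0.02 ± 0.07 (adjusted p = 0.902), and its partner ARNT differed by -0.04 ± 0.07 (adjusted p = 0.832). EPAS1, which encodes HIF-2 alpha, read 9.89 and 9.85 and then 9.56 and 9.41 and fell 1.31-fold (adjusted p = 0.0238), a call lost on leaving out any single array, and its other probe set differed by -0.14 without a call. VHL, which captures hydroxylated alpha subunits, was dim at 3.15 to 3.38 and differed by 0.17 ± 0.06 (adjusted p = 0.171).

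Of 14 members of uptake and upper glycolysis, 6 rose and none fell, with a median of 0.35 and 13 positive differences, and 5 rose in each of the 4 leave-outs. SLC2A1, the glucose transporter of most cells, read 8.16 and 8.19 at 0 h and 10.21 and 10.14 at 6 h. HK2, which traps glucose as its phosphate, read 9.37 and 9.29 and then 11.15 and 11.26, and PFKFB3, which makes the activator of phosphofructokinase, read 8.35 and 8.22 and then 10.22 and 10.17. All 3 were far apart between times relative to their replicates, at 3.998-fold, 3.67-fold and 3.76-fold with adjusted p of 2.67e-06, 7.77e-06 and 7.21e-06. The other probe set of HK2 went the other way without a call, at -0.26. PFKP, the platelet-type phosphofructokinase, rose 1.92-fold (adjusted p = 0.00071), while the liver and muscle types PFKL and PFKM differed by 0.10 and 0.05 (adjusted p = 0.528 and 0.726). SLC2A3, a second high-affinity transporter, rose 1.61-fold and HK1, the constitutive hexokinase, 1.37-fold.

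In lower glycolysis 3 of 9 enzymes rose and 8 had positive differences, with a median of 0.24 and 1 to 2 called over the 4 leave-outs. PGK1, which makes the first ATP of the pathway, read 11.73 and 11.77 and then 12.49 and 12.44, a 1.64-fold rise (adjusted p = 0.000713) shared by its 3 other probe sets, each called higher. PGAM1, the phosphoglycerate mutase, rose 1.4-fold. ENO2, the neuronal enolase, was dim, at 4.88 and 4.91 and then 5.48 and 5.36. It rose 1.45-fold (adjusted p = 0.038), a call lost in every leave-out. GAPDH, at 13.71 and 13.67 and then 13.74 and 13.79, differed by 0.07 (adjusted p = 0.565), and ENO1, the main enolase, by 0.19 (adjusted p = 0.118). Among 18 genes of pyruvate fate 2 rose. PDK1, the kinase that shuts the pyruvate dehydrogenase complex, read 6.18 and 6.06 at 0 h and 8.16 and 8.17 at 6 h and rose 4.13-fold (adjusted p = 5.3e-06). LDHA, which turns pyruvate into lactate, rose 1.45-fold (adjusted p = 0.00251), while its sister subunit LDHB differed by 0.06 (adjusted p = 0.611).

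Of 18 glycogen genes 3 rose, 2 of them in every leave-out. PPP1R3C, which targets a phosphatase to glycogen and so favours its synthesis, read 7.50 and 7.75 and then 9.08 and 8.97, a 2.64-fold rise (adjusted p = 0.000156). PGM1, which links glucose phosphates to glycogen, rose 1.51-fold and GBE1, the branching enzyme, 1.31-fold. AK4, a mitochondrial adenylate kinase, read 8.27 and 8.40 and then 9.83 and 9.82 and rose 2.8-fold, with its other probe set also called at 1.54. CKB, the brain-type creatine kinase that buffers ATP, rose 1.27-fold (adjusted p = 0.03). None of the 7 pentose phosphate genes was called, the furthest being TKT, the transketolase, at -0.23 (adjusted p = 0.169).

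BNIP3, a receptor that marks mitochondria for autophagy, had the largest rise of all genes, from 9.35 and 9.22 to 12.22 and 12.26, which is 2.96 ± 0.07 on the log2 scale or 7.78-fold (adjusted p = 1.56e-06). Its relative BNIP3L read 10.07 and 10.09 and then 11.31 and 11.16 and rose 2.23-fold. The other probe set of each was called too, at 2.81 and 1.09. In the autophagy list 4 of 26 members rose and 1 fell, with a median near 0. PIK3C3, the lipid kinase that starts autophagosomes, rose 1.46-fold on a probe set whose partner differed by 0.02, WIPI2, which reads that lipid, rose 1.23-fold, and SQSTM1, a cargo receptor, fell 1.32-fold. Among 20 genes of mitochondrial adaptation LONP1, the matrix protease, rose 1.35-fold and UCP2, an inner membrane carrier, fell 1.29-fold. OGDH, a subunit of the 2-oxoglutarate dehydrogenase complex, was the only called gene of 24 in the tricarboxylic acid and glutamine list, lower by 1.3-fold (adjusted p = 0.0217). That is 4.17% called, near the 3.54% over all genes. The calls of LONP1, UCP2 and OGDH were lost in every leave-out. No member was called among 28 complex I subunits, 19 subunits of complexes III and IV or 35 genes of the ATP synthase and the vacuolar proton pump. With 3.54% of all genes called, groups of these sizes can hold no call, so these counts give no contrast.

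DDIT4, which restrains the growth kinase complex mTORC1, had the largest rise after BNIP3. It read 8.55 and 8.66 at 0 h and 10.92 and 10.97 at 6 h, a 5.07-fold rise (2.34 ± 0.07, adjusted p = 4.37e-06) that held without any single array. It was the only called gene among 21 of the mTORC1 and AMPK list, whose median was -0.05. That is 4.76% called, beside 3.54% over all genes.

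Of 25 angiogenic factor genes 3 rose and none fell, while the list's median was -0.07. VEGFA, the principal endothelial growth factor, read 8.32 and 8.56 and then 10.38 and 10.31, a 3.74-fold rise, and its 3 other probe sets were each called, at 0.80 to 1.08. ADM, which encodes the vasodilator adrenomedullin, read 6.86 and 6.85 and then 7.91 and 7.76 and rose 1.97-fold (adjusted p = 0.000236). EFNA3, an ephrin ligand, rose 1.28-fold. The list of stanniocalcins and other hypoxia-induced genes was assembled from genes known for such rises, so its direction is no independent evidence: 16 of its 22 members rose and none fell, with a median of 0.54 and 10 to 15 rises over the leave-outs. STC1, a secreted glycoprotein hormone, read 5.53 and 5.18 and then 6.76 and 6.70 and rose 2.6-fold, a call lost without 6 h replicate 1. TMEM45A, a transmembrane protein, read 9.31 and 9.32 and then 11.37 and 11.37 and rose 4.15-fold. SPAG4, a nuclear envelope protein, rose 2.88-fold from 5.03 and 5.14, and ZNF395, a zinc finger factor, 1.97-fold. Smaller rises were those of STC2 (1.79-fold), the secreted cytokine gene MIF (1.3-fold), the chemokine receptor gene CXCR4 (1.42-fold) and NDRG1 (1.5-fold), a long-known marker of low oxygen.

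Of 17 collagen-modifying enzymes and chaperones 5 rose and none fell, with a median of 0.21 and 2 to 3 rises over the leave-outs. PLOD2, a lysyl hydroxylase that shapes collagen crosslinks, read 9.74 and 9.80 and then 11.55 and 11.44 and rose 3.3-fold (adjusted p = 3.58e-05), with its other probe set called at 1.97. P4HA1, the catalytic chain of the collagen prolyl hydroxylase, read 9.95 and 9.92 and then 11.44 and 11.34 and rose 2.74-fold. PLOD1, P4HA2 and the collagen chaperone gene CRTAP rose 1.68-fold, 1.25-fold and 1.33-fold. Of 32 collagen chains COL14A1 and COL3A1 rose, by 1.46-fold and 1.26-fold, and the chains' median was 0.07. The 2 other probe sets of COL14A1 differed by only 0.106 to 0.107 without a call. The 3 of COL3A1 ran from -0.08 to 0.39, with 1 called higher. The COL3A1 call was lost in every leave-out and that of COL14A1 without 0 h replicate 2. ERO1A, which regenerates the enzyme that forms disulphide bonds in secreted proteins, rose 1.6-fold from 7.99 and 7.90 to 8.67 and 8.57. It and EDEM1, which sends misfolded glycoproteins to degradation (1.22-fold), were the called members of 22 genes of folding in the endoplasmic reticulum.

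Of 27 integrins ITGB2, ITGA5 and ITGB5 rose, by 1.45-fold, 1.355-fold and 1.21-fold, and 0 to 2 were called over the leave-outs. The basement membrane genes LAMA4 and NID1, which encode a laminin chain and nidogen, rose 1.52-fold and 1.43-fold, and FBN1, the main microfibril protein, rose 1.33-fold. The 4 other probe sets of LAMA4 ran from -0.05 to 0.26, and the other ones of NID1 and FBN1 differed by 0.15 and 0.17. PLAU, the urokinase protease, fell 1.23-fold. ANXA1, an annexin that binds membranes in a calcium-dependent way, fell from 11.26 and 11.26 to 10.58 and 10.50, which is 1.64-fold (adjusted p = 0.00071), and held without any single array. It was the only called gene of 14 annexins (7.14%, beside 3.54% over all genes).

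**Figure D2:**
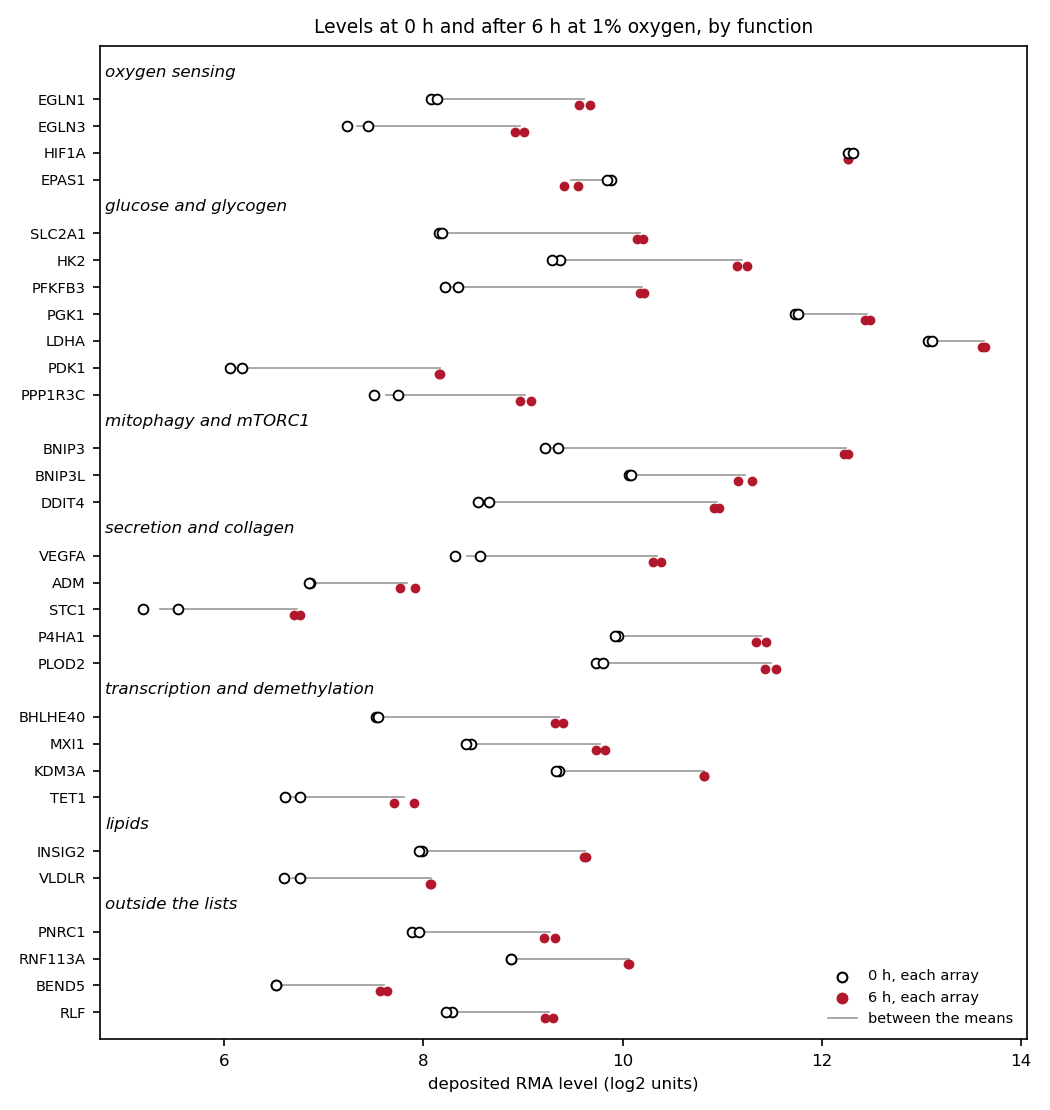
Deposited level (horizontal axis, log2 units) of 29 genes by function in each 0 h array (open points) and each 6 h array (filled points, drawn just below the row's line), with a line between the means. Apart from HIF1A, whose arrays overlap, and EPAS1, which fell, every gene drawn was higher in both 6 h arrays than in both 0 h arrays.

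Of 23 genes for enzymes that use oxygen to remove methyl groups 7 rose and none fell, with 3 to 4 rises over the leave-outs, and the list's median was 0.04. KDM3A, which clears methyl marks from lysine 9 of histone H3, read 9.37 and 9.33 at 0 h and 10.81 and 10.82 at 6 h, a 2.76-fold rise (adjusted p = 1.35e-05). TET1, which oxidises methylated cytosine, was dimmer, at 6.76 and 6.61 and then 7.90 and 7.70, and rose 2.18-fold (adjusted p = 0.00328). KDM4B and KDM5B, demethylases of histone H3, rose 1.48-fold and 1.43-fold, with 4 other probe sets of KDM4B from 0.002 to 0.688 and 3 of KDM5B from -0.22 to 0.62. KDM2A rose 1.3-fold on a probe set whose partners differed by -0.09 to 0.03. KDM4C and JMJD6, a hydroxylase of the same fold, rose 1.27-fold and 1.28-fold. No gene was called among 38 other chromatin enzymes. With 3.54% of all genes called, a list of this size can hold no call, so the count gives no contrast.

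BHLHE40, which dampens the circadian clock, read 7.53 and 7.54 and then 9.40 and 9.32, a 3.55-fold rise (adjusted p = 4.37e-06), and its close relative BHLHE41 rose 2.19-fold from 7.10 and 7.15. In the clock list 4 of 17 genes rose and 1 fell: NFIL3, a repressor of clock output, rose 1.605-fold, PER2, a core clock inhibitor, 1.28-fold, and NR1D2, the nuclear receptor REV-ERB beta, fell 1.39-fold. The other probe set of PER2 went the other way without a call, at -0.14. MXI1, which competes with MYC for MAX, read 8.48 and 8.42 and then 9.82 and 9.73 and rose 2.51-fold. MNT, another MYC antagonist, rose 1.29-fold, and MYC itself read 10.12 and 10.14 and then 9.80 and 9.85, a fall of 1.24-fold (adjusted p = 0.0334). MXI1 held without any single array, and MNT and MYC were lost in each. Among 283 genes of the ZNF zinc finger family 9 rose and none fell, a share of 3.18% beside the 2.32% of all genes that rose. ZNF292 and ZNF654 rose 1.94-fold and 1.72-fold and held without any single array.

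INSIG2, which holds the sterol sensor in the endoplasmic reticulum, read 7.99 and 7.95 at 0 h and 9.64 and 9.61 at 6 h, a 3.15-fold rise (adjusted p = 4.37e-06). Its relative INSIG1 rose 1.38-fold, the lipogenic factor gene SREBF1 1.29-fold and the desaturase gene SCD 1.26-fold, making 4 of 32 genes of cholesterol and fatty acid synthesis, of which 1 was called in each leave-out. VLDLR, a receptor for lipoproteins, read 6.60 and 6.76 and then 8.07 and 8.07 and rose 2.62-fold. HILPDA, which stores lipid droplets by blocking a lipase, rose 1.39-fold. These were the called members of 37 genes of uptake, storage and oxidation.

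Some receptors for growth factors rose. Of 20 receptor tyrosine kinase genes 3 rose and none fell, and 15 had positive differences around a median of 0.09. ALK read 9.83 and 9.75 and then 10.56 and 10.58 and rose 1.71-fold (adjusted p = 0.00076). PDGFRA, a platelet-derived growth factor receptor, rose 1.59-fold from 7.60 and 7.66 to 8.31 and 8.28, though its 2 other probe sets differed by 0.07 to 0.19 without a call. FGFR2 rose 1.357-fold, with 9 other probe sets from -0.25 to 0.35. In the insulin-like growth factor axis 4 of 25 genes rose and 1 fell. IGFBP5, a secreted binding protein of the growth factors, read 7.97 and 7.90 and then 8.83 and 8.81 and rose 1.84-fold, with 4 other probe sets from -0.16 to 0.49. IGFBP2, INSR and IGF1R rose 1.515-fold, 1.34-fold and 1.25-fold, and PIK3CD, a PI3-kinase subunit, fell 1.2-fold. The 2 other probe sets of IGF1R ran from -0.14 to 0.11, and the other ones of INSR and PIK3CD differed by 0.12 and 0.003. In the IGF list 1 rise was called in each leave-out.

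In the ATF4 axis, the programme that restores amino acids and halts translation when protein synthesis is under strain, 8 of 27 genes fell and none rose, with a median of -0.08 and 2 to 3 falls over the leave-outs. ATF4, the factor itself, read 11.15 and 11.18 at 0 h and 10.65 and 10.68 at 6 h, a 1.42-fold fall (adjusted p = 0.00558). DDIT3, the pro-death factor CHOP, read 10.03 and 10.12 and then 9.46 and 9.42 and fell 1.55-fold (adjusted p = 0.00301). TRIB3, a pseudokinase target of both, read 8.47 and 8.42 and then 7.82 and 7.93 and fell 1.49-fold. DDIT3 and TRIB3 held without any single array. ASNS, which makes asparagine, fell 1.45-fold, CEBPG, a dimer partner of ATF4, 1.445-fold, and PPP1R15A, which reverses the translational block, 1.26-fold. The calls of ATF4, CEBPG and PPP1R15A were lost in every leave-out. That of ASNS was lost without 0 h replicate 2 and without 6 h replicate 1. ATF5 and CEBPB, further factors of the axis, fell 1.27-fold and 1.26-fold. The 16 cytosolic tRNA synthetases, several of them ATF4 targets, had a median of -0.11 and 2 positive differences, but none was called, GARS1 being furthest at -0.29 (adjusted p = 0.0545).

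Of 19 genes of the NRF2 antioxidant axis 3 fell and 1 rose, with a median of -0.07. HMOX1, the haem oxygenase, read 8.40 and 8.37 and then 7.61 and 7.69 and fell 1.665-fold (adjusted p = 0.000508). GCLM, which sets the pace of glutathione synthesis with its catalytic partner, read 8.67 and 8.74 and then 8.15 and 7.99 and fell 1.56-fold. NQO1, a quinone reductase, read 9.77 and 9.65 and then 9.21 and 9.22 and fell 1.4-fold (adjusted p = 0.016). HMOX1 and GCLM held without any single array. ABCC1, an exporter of glutathione conjugates, rose 1.24-fold. TXNIP, which blocks thioredoxin and glucose uptake, fell 1.198-fold (adjusted p = 0.042), and its 2 other probe sets differed by -0.32 to -0.31. HSPB8, a small heat shock protein, fell 1.58-fold and was the only called gene of 28 in cytosolic heat shock. That is 3.57% called, near the 3.54% over all genes, and the HSPB8 call was lost in every leave-out. None of 10 metallothionein genes was called.

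PMAIP1, which encodes the death-promoting BH3-only protein NOXA, read 9.82 and 9.80 at 0 h and 9.10 and 9.07 at 6 h and fell 1.64-fold (adjusted p = 0.000514). BCL2L1, the protective BCL-XL, read 7.69 and 7.73 and then 7.26 and 7.32 and fell 1.34-fold (adjusted p = 0.016). The other probe sets of both genes had negative differences as well. TNFRSF12A, the receptor for TWEAK, fell 1.48-fold. APAF1 and CASP9, partners in the apoptosome, rose 1.5-fold and 1.32-fold. Another probe set of APAF1 differed by -0.04, and the other one of CASP9 by 0.07. Of 17 p53 targets the stress genes PLK2 and GADD45A fell 1.435-fold and 1.28-fold, and the growth-restraining BTG1 and CCNG1 rose 1.44-fold and 1.28-fold. No p53 target was called in any leave-out.

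EGR1, an immediate early factor, read 8.80 and 8.89 and then 8.21 and 8.11 and fell 1.605-fold (adjusted p = 0.00407), a call lost without 0 h replicate 2, and ATF3, a stress-induced factor of the same class, fell 1.38-fold. KLF9 rose 1.32-fold. These were the 3 called genes of 25, and FOS and JUN differed by -0.04 and -0.10 (adjusted p = 0.908 and 0.372). HBEGF, a ligand of the EGF receptor, read 8.07 and 8.16 and then 7.50 and 7.36 and fell 1.603-fold. The ERK phosphatase gene DUSP6 read 9.21 and 9.27 and then 8.85 and 8.85 and fell 1.31-fold, and SPRY4, another brake on ERK, fell 1.27-fold, making 3 falls among 19 genes with 1 in each leave-out. Of 50 dual-specificity and tyrosine phosphatases 4 fell, DUSP10 and DUSP14 among them, and 1 rose.

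In the NF-kB list 3 of 23 genes fell and none rose, with a median of -0.16, and 19 members had differences below 0. CXCL3, a chemokine that draws neutrophils, read 5.88 and 5.96 and then 5.35 and 5.27 and fell 1.525-fold (adjusted p = 0.00307). Its neighbour CXCL2 fell 1.43-fold from 4.98 and 5.03, and IRF1, a factor shared with interferon signalling, 1.29-fold. IL11, a cytokine of the gp130 family, fell 1.337-fold. TNIP1, which restrains NF-kB, rose from 8.81 and 8.83 to 9.42 and 9.55, by 1.59-fold (adjusted p = 0.00238), and held without any single array. None of 41 interferon response genes was called, STAT3 and JAK2 being furthest at -0.29 and -0.27.

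Of 27 targets of YAP and SRF and actin-binding genes 2 fell and none rose, with a median of -0.14 and 4 positive differences, and 0 to 2 were called over the leave-outs. ZYX, a focal adhesion protein, read 8.75 and 8.70 and then 8.27 and 8.22 and fell 1.4-fold (adjusted p = 0.00421), a call lost without 0 h replicate 1. TAGLN, an actin-bundling protein of smooth muscle type, read 7.04 and 7.06 and then 6.49 and 6.68 and fell 1.38-fold. The LIM domain protein gene CSRP1 and WASL, which starts actin branching, both outside that list, fell 1.49-fold and 1.54-fold. The microtubule-binding genes MAP1A and MAP1B, also outside it, fell 1.56-fold and 1.36-fold. Other probe sets differed by only -0.04 for WASL, -0.05 to -0.04 for MAP1A and -0.10 for MAP1B. ID2 and ID4, inhibitors of helix-loop-helix factors that follow BMP signals, fell 1.26-fold and 1.385-fold, and the activin receptor gene ACVR1B rose 1.24-fold. The 5 other probe sets of ACVR1B differed by only 0.01 to 0.04.

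**Figure D3:**
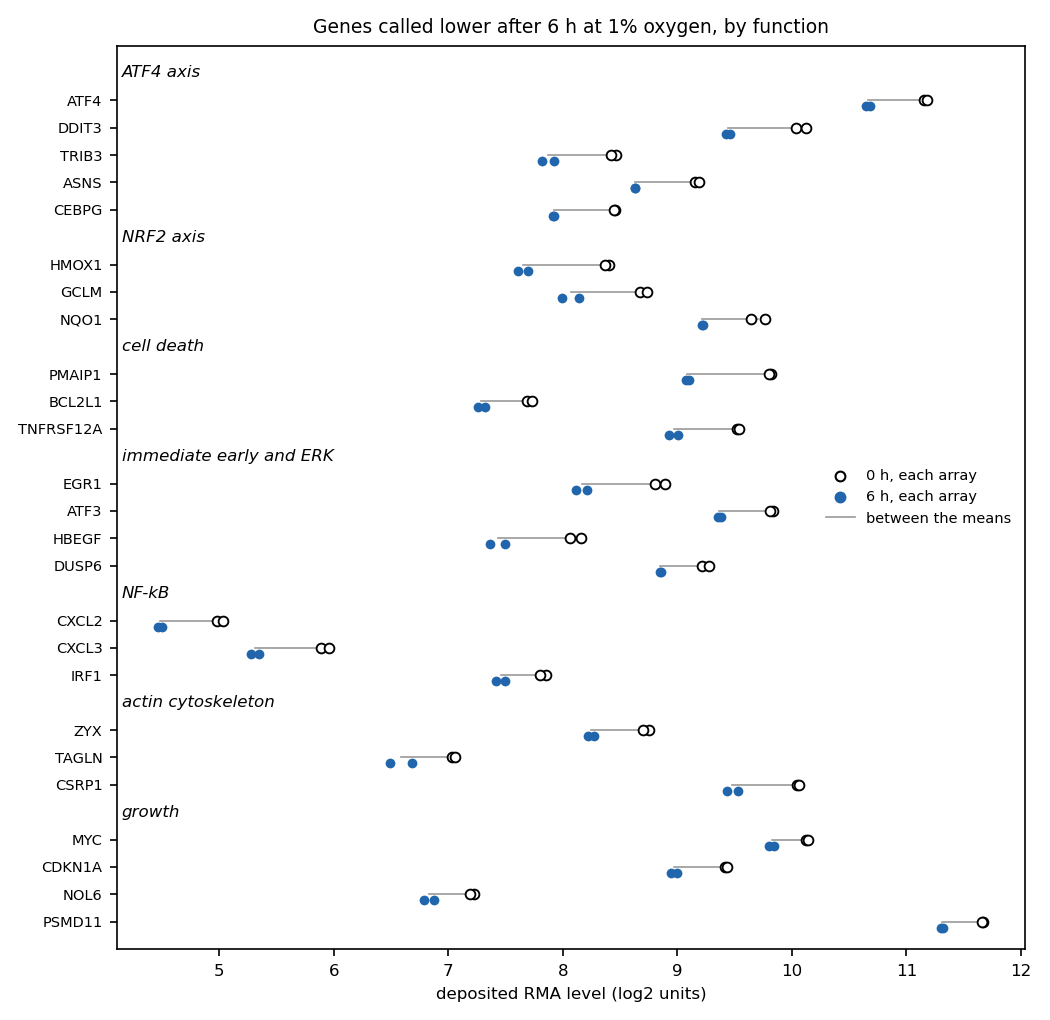
Deposited level (horizontal axis, log2 units) of 25 genes called lower, by function, in each 0 h array (open points) and each 6 h array (filled points, drawn just below the row's line), with a line between the means. In every gene drawn both 6 h arrays were below both 0 h arrays, and HMOX1, PMAIP1, EGR1 and HBEGF show the longest lines.

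Most transcripts of mitosis had small positive differences. Of 69 measured members 11 rose and 1 fell, the median was 0.13 and 62 had positive differences, against 5257 of 11963 over all genes; under quantile normalization of the arrays 59 did. The kinetochore gene CENPI read 7.07 and 7.07 and then 7.75 and 7.57 and rose 1.51-fold (adjusted p = 0.00487), a call lost without either 0 h array. HMMR, a spindle and hyaluronan-binding protein, rose 1.363-fold, ASPM, which organises spindle poles, 1.32-fold, BUB1, a checkpoint kinase, 1.3-fold, and AURKA, the centrosome kinase, 1.24-fold. CDC25A, the phosphatase that opens S phase, fell 1.27-fold while its mitotic relative CDC25C rose 1.25-fold. These rises rested on all 4 arrays: 0 to 1 of the mitosis genes was called higher over the leave-outs. No gene of 56 in DNA replication and nucleotide supply was called, and their median was 0.01. With 3.54% of all genes called, a list of this size can hold no call, so the count gives no contrast with mitosis. Among 55 DNA repair genes XRCC2, a recombination factor, rose from 7.38 and 7.41 to 8.13 and 8.08, which is 1.64-fold (adjusted p = 0.000428), and BARD1 and FANCI rose 1.205-fold and 1.196-fold. The other probe set of FANCI differed by only 0.01. CCNG2, an atypical cyclin linked to arrest, rose 1.63-fold on a probe set whose 2 partners were called at 1.06 and 1.09, and CDKN1A, the CDK inhibitor p21, fell 1.365-fold.

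Most genes for making ribosomes and proteasomes had small negative differences. In ribosome biogenesis 5 of 59 genes fell and 1 rose, with a median of -0.10 and 11 positive differences. NOL6, a nucleolar assembly factor, read 7.23 and 7.19 and then 6.79 and 6.88 and fell 1.296-fold (adjusted p = 0.0265), and POLR3C, a subunit of RNA polymerase III, fell 1.297-fold. IMP3, part of the same processing machinery, rose 1.29-fold. Of 41 proteasome subunits 3 fell, PSMD11, PSMD3 and PSME3, by 1.28-fold, 1.26-fold and 1.23-fold, with 3 positive differences around a median of -0.15. With arrays centred on their median, 6 were positive. The other probe set of PSMD11 differed by only -0.05. None of the genes of either list was called in any leave-out. Of 51 mitochondrial ribosomal genes 2 fell, MRPL46 and MRPL58, around a median of -0.08. That is 3.92% called, near the 3.54% over all genes, and both calls were lost in every leave-out. The 57 cytosolic ribosomal protein genes had a median of 0.02 and 1 call, RPL27A, higher by 1.32-fold and also lost in every leave-out. EIF5, which guides start codon choice, fell 1.31-fold and its 4 other probe sets ranged from -0.39 to -0.27.

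**Figure D4:**
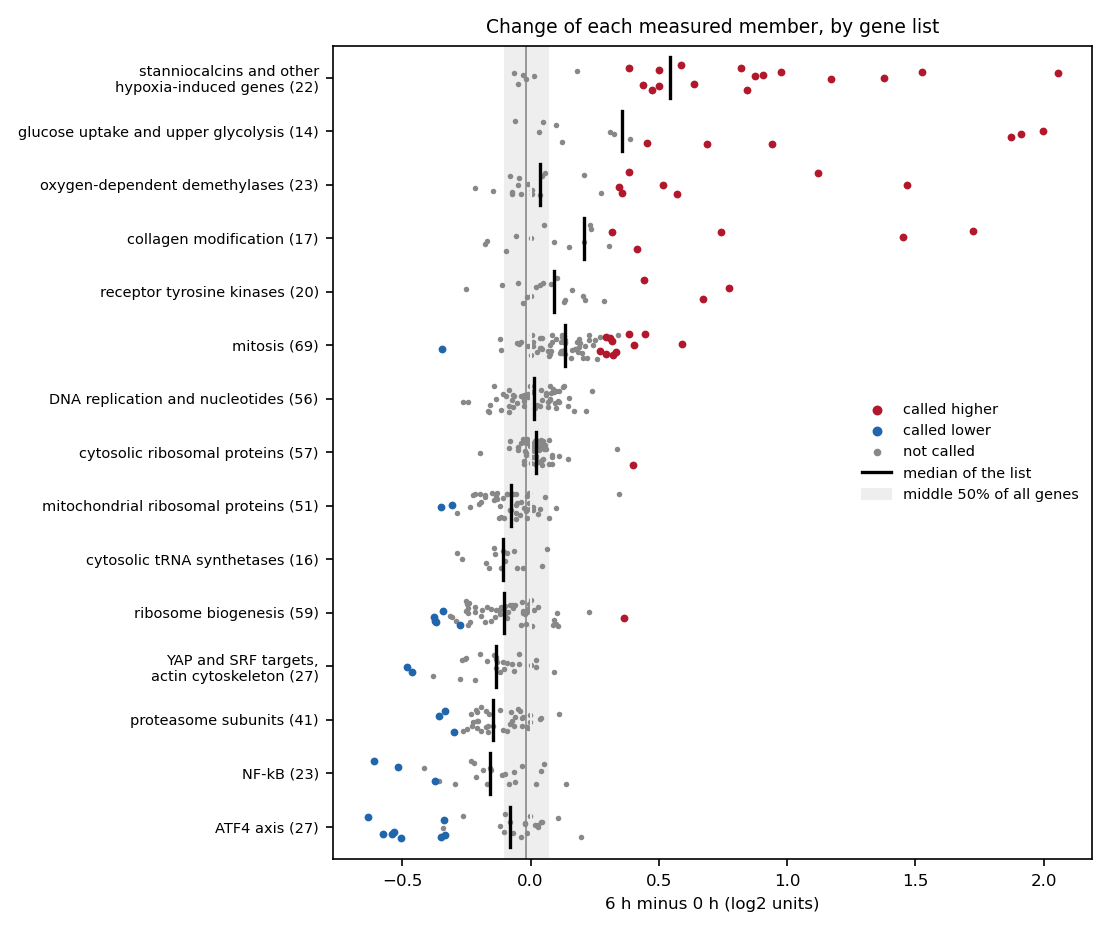
Difference between 6 h and 0 h (horizontal axis, log2 units) of each measured member of 15 lists, 1 point per gene with called genes in red and blue, the list's median as a black bar and the number measured in brackets. The grey band spans the middle 50% of all genes, from -0.10 to 0.07, and the medians run from 0.54 for the hypoxia-induced genes to -0.16 for NF-kB.

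MYOD1, the muscle-determining factor, read 12.08 and 12.09 and then 12.01 and 12.02, a difference of -0.07 ± 0.06 (adjusted p = 0.567), and MYOG, which drives fusion into fibres, differed by 0.20 ± 0.07 (adjusted p = 0.15). PAX3 and FOXO1, whose fusion defines many alveolar tumours, differed by -0.04 and -0.01 (adjusted p = 0.83 and 0.981), and these probe sets may read the fusion transcript as well as either parent gene. Of 19 myogenic regulators MEF2C, a muscle enhancer factor, and EYA1, a transcriptional co-factor, rose 1.24-fold and 1.255-fold. Of 45 contractile and membrane genes 3 rose: TNNC1, the slow muscle troponin C, read 6.70 and 6.55 and then 7.08 and 7.12 and rose 1.39-fold, MB, which encodes the oxygen store myoglobin, 1.32-fold, and NEB, the giant thin filament ruler, 1.26-fold. None of these 5 genes held in any leave-out. NELL1 was the only called gene of 15 associated with the fusion (6.67%, beside 3.54% over all genes). It was higher by 1.27-fold, a call lost in every leave-out.

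Outside all lists and families 130 genes were higher and 77 lower. PNRC1, a nuclear receptor co-activator, read 7.88 and 7.96 at 0 h and 9.22 and 9.33 at 6 h and rose 2.55-fold (adjusted p = 4.04e-05). RNF113A, a spliceosome-associated ubiquitin ligase, read 8.88 and 8.88 and then 10.07 and 10.06 and rose 2.27-fold. BEND5, a DNA-binding repressor, TRMT2B, which methylates mitochondrial RNA, and RLF, a zinc finger factor, rose 2.11-fold, 2.02-fold and 2.015-fold. SAP30, a subunit of the SIN3 histone deacetylase complex, rose 1.785-fold, with 2 of its 3 other probe sets called. All of these held without any single array, as did the surface glycoprotein gene PROM1 (1.735-fold), the matrix protein gene MATN2 (1.72-fold), the neuronal adhesion gene NFASC (1.59-fold) and SMPDL3A (1.605-fold), which encodes a nucleotide phosphodiesterase. Among the hypoxia-induced genes RAB20, a small GTPase of endosomes, rose 1.88-fold from 7.63 and 7.54 to 8.43 and 8.56, and in the solute carrier family SLC25A36, a mitochondrial pyrimidine nucleotide carrier, rose 1.78-fold with both other probe sets called.

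Among falls outside the lists WDR5B, a WD repeat protein close to WDR5, had the largest difference, from 7.06 and 6.98 to 6.24 and 6.12, which is 1.795-fold, but with a standard error of 0.17 and an adjusted p of 0.038 it was lost in every leave-out. ELL2, a transcription elongation factor, read 6.11 and 6.16 and then 5.47 and 5.43 and fell 1.61-fold (adjusted p = 0.00185), holding without any single array, though its other probe set differed by -0.12. SGK1, a kinase induced by serum and glucocorticoid, fell 1.44-fold, COA7, an assembly factor of cytochrome oxidase, 1.42-fold, BRD2, a reader of acetylated histones, 1.35-fold, and EMG1, a ribosomal RNA methyltransferase, 1.349-fold.

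The functional lists held 111 of the rises and 45 of the falls. Of the 52 lists, 22 held called rises and no called fall, 8 held called falls and no called rise, 15 held both and 7 held neither. Those 7 were Notch, the interferon response, DNA replication, pentose phosphate genes, metallothioneins, tRNA synthetases and other chromatin enzymes. Among 68 families named by symbol 29 held no called gene, among them 65 potassium channels, 46 sorting proteins of the VPS and SNX groups and 34 kinesins. With 3.54% of all genes called, lists and families of such sizes with no call are near the share over all genes.

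The later arrays place the 6 h levels in their course. Contrasts with 6 h use the same 6 h arrays that chose these genes, and are given as values. Over all genes 0.201% were called between 12 h and 6 h and 2.78% between 24 h and 6 h. Of the 277 genes higher at 6 h, 12 were called higher again at 12 h than at 6 h and none lower, and at 24 h 59 were higher and 4 lower than at 6 h. Of the 146 genes lower at 6 h, 4 were lower again and 1 higher at 12 h, and 21 were lower and 3 higher at 24 h. SLC2A1 and BHLHE40 were near their later levels at 6 h, with 12 h changes against 0 h of 2.04 and 1.77. Against 0 h, SPAG4 stood higher by 1.52, then 2.76 and then 3.59 on the log2 scale over the 3 later times, and IGFBP5 by 0.88, 1.54 and 2.25. NQO1 stood at -0.49, -1.13 and -1.77 against 0 h. TXNIP turned: it was 0.26 below 0 h at 6 h, with levels of 10.28 and 10.33 against 10.56 and 10.57, and then 0.54 and 0.88 above 0 h at 12 h and 24 h, the 24 h level differing from 6 h with adjusted p = 0.000229. DUSP6 stood at -0.39, -0.33 and 0.23 against 0 h. Its 24 h level differed from 6 h with adjusted p = 0.00601 and was not called against 0 h (adjusted p = 0.0539).

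**Figure D5:**
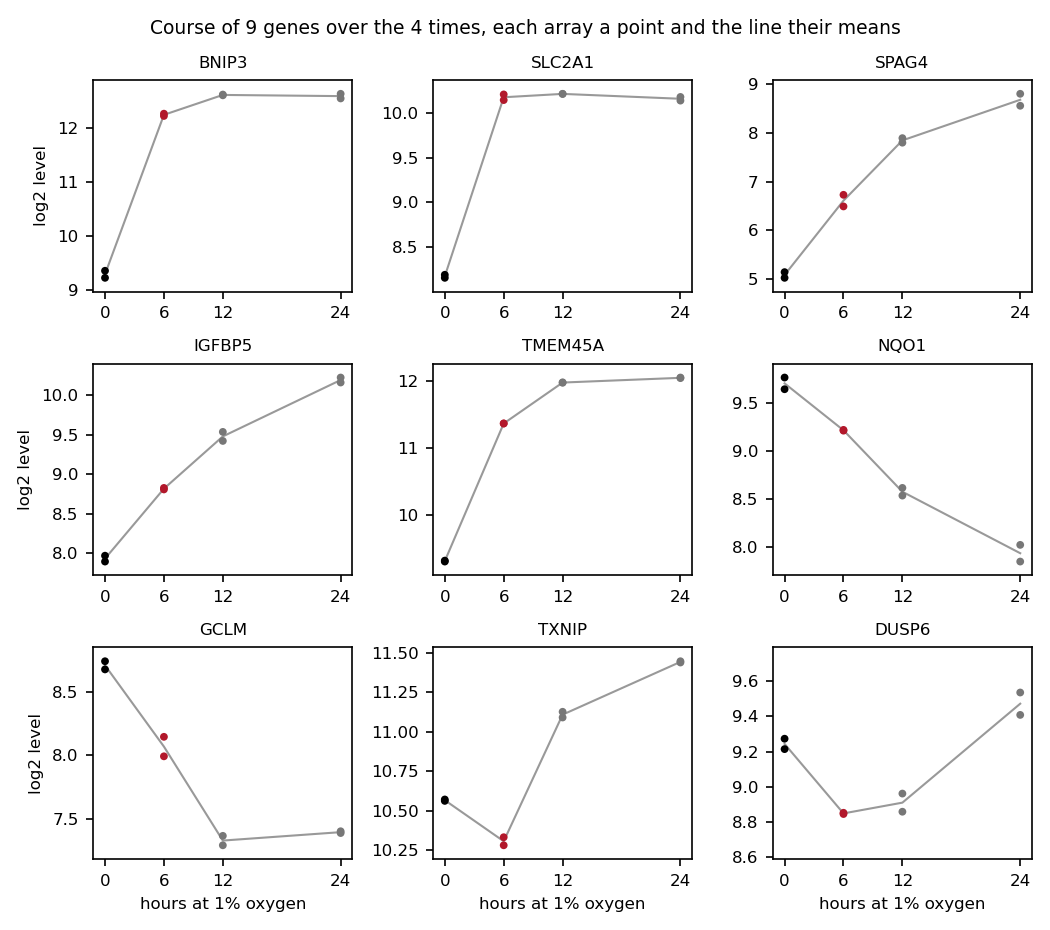
Deposited level (vertical axes, log2 units, scaled per gene) of 9 genes over 0, 6, 12 and 24 h (horizontal axes), each array a point with 6 h in red and the means joined. SLC2A1 is near its later level by 6 h; SPAG4, IGFBP5 and NQO1 move on in the same direction, TXNIP turns after 6 h, and DUSP6 is higher at 24 h than at 6 h.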

How the data were processed

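RNA from SJRH30 cells was hybridised to 8 single-colour Affymetrix human arrays, 2 at each of 4 times. The deposited values are log2 probe set levels that the authors normalized by robust multi-array averaging (RMA), per the submitters' processing notes. The version is not given in the sources used here. RMA sets the arrays to a common distribution, so differences are relative to the other transcripts of an array. Of 22277 probe sets, 62 were controls and 19064 had 1 gene symbol. A gene was read on its probe set of highest mean level, which left 11963 genes.

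A linear model with a mean per time was fitted over all 8 arrays by limma 3.58.1 (R 4.3.3), using lmFit and eBayes, with 4 residual and 3.68 prior degrees of freedom, and Benjamini-Hochberg adjustment over all genes at 0.05. Errors are standard errors of that fit. P-values measure the spread between 2 arrays a time, so the array number limits precision. The method was tested on simulated data with 200 changed genes. It recovered 14% of changes of 0.25 on the log2 scale and 63.5% of changes of 0.5. For changes of 1 and 2 the shares were 93.9% and 99.8%. A gene without a call may therefore have changed by a small amount.

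Members and lists were chosen with earlier results of these data known. Genes were named by size among those called with arrays that did not overlap between times: up to 5 a direction in each of 52 lists, 3 a direction in each of 68 symbol families and 20 a direction outside both. Where a list had no call its 2 largest differences were used, and HIF1A, EPAS1, ARNT, VHL, MYOD1, MYOG, PAX3, FOXO1 and MYC were named whatever their values. Other genes that appear were chosen after their values were seen. Same-numbered arrays were not paired: the correlations of their deviations ran from -0.11 to 0.09. Alternatives were other variance models, normalizations, filters and probe set rules, a replicate block and leaving out arrays.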

Additional observations from a re-analysis of the deposited data

Results flagged for a closer look

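Signal outside the comparison of named genes appeared in probe sets with several gene names or none. Of 3151 such probe sets 64 were called (2.03%), with 43 higher and 21 lower, among 22215 probe sets tested together. The largest rise among them was 1.45 and the largest fall -0.73 on the log2 scale. They were not given gene names here.

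The poly-A control probe sets, which read RNA added during labelling and not RNA of the cells, were higher in the 6 h arrays by 0.47 on the log2 scale. Their mean over 24 probe sets was 8.32 and 8.36 at 0 h and 8.81 and 8.79 at 6 h. The 18 hybridisation control probe sets differed by 0.25. The part of this in the gene values was not tested, and the median difference over all genes was -0.02.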

How the results depend on the processing

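None of the 225 named called genes reversed its direction under any alternative run. Their arrays did not overlap between 0 h and 6 h, so leaving out an array could not turn a sign. Other variance models, the replicate block, filters and cutoffs leave the difference itself unchanged. Only the normalizations and probe set rules could have reversed a direction. FOXO1, HIF1A and PAX3, which were not called, changed sign when arrays were left out in turn, running from -0.09 to 0.08, from -0.05 to 0.003 and from -0.09 to 0.007. Beside 423 genes called (277 higher, 146 lower), counts of calls within 1.5 times of these came from median centring (417, 296 and 121), quantile normalization (430, 283 and 147), robust variance (408, 270 and 138), the mean of all probe sets (397, 256 and 141) and the probe set of largest variance (394, 270 and 124). An intensity trend in the variance called 1206 genes (670 higher, 536 lower), only the 4 compared arrays 587 (352 and 235), dropping the dimmest 25% of genes 776 (444 and 332) and dropping the dimmer 50% 1323 (698 and 625). An adjusted p under 0.01 left 150 (121 and 29). With a replicate block 272 genes were called, 195 higher and 77 lower, and 168 of 225 named called genes kept their call. Leaving out 1 array gave 90 to 508 called, 76 to 317 higher and 14 to 191 lower. Of the named called genes 71 kept their call without each of the 4 compared arrays. With the arrays centred on their median the split moved from 277 higher and 146 lower to 296 and 121. The causes were not tested, except that leave-outs have fewer arrays. Signals near background limit the dimmest 25% of genes, which held 4 rises and 4 falls.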
